A study of Mus musculus with 6 samples.

Results

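Retnla, Chil3, Mrc1, Clec10a, Mgl2, Ccl24, Ccl17 and Il4ra are genes commonly used to mark alternative activation of mouse macrophages, the state that interleukin-4 (IL-4) and interleukin-13 (IL-13) induce. These 8 of the 15415 genes listed in the expression table were selected on values of the contrast described here, since Retnla had the largest decrease of that contrast. Their levels and fold changes are therefore a description and carry no test. All 8 were listed, and 7 reached the filter on low values (a mean of at least 1 FPKM in one group) that 9030 genes passed. FPKM is the number of sequenced fragments scaled to gene length and to the total of the library.

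RNA was sequenced from peritoneal macrophages (PEMs) of C57BL/6J mice that carried Tim-4 fl/fl. In 3 libraries the mice also carried LysM-Cre (LysM-Cre; Tim-4 fl/fl, knockout libraries 1 to 3), and in the other 3 they carried Tim-4 fl/fl without Cre (control libraries 1 to 3). By the study's methods the mice were males of 6 to 8 weeks, and the cells were collected 3 days after an intraperitoneal injection of 6% starch. LPS, a bacterial cell wall component that activates macrophages classically, is the labelled treatment in both groups, for which the study's methods on activating PEMs name 1 μg/ml for 3.5 hours. LysM-Cre is expressed from the Lyz2 locus in macrophages, monocytes and neutrophils. Since the controls lack it, the loss of Tim-4 and the presence of the Cre allele cannot be told apart. Titles and genotype entries of the samples contradict each other, and the groups follow the titles.

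In IL-4 signalling, IL-4 and IL-13 bind receptors that contain the IL-4 receptor alpha chain, Janus kinases then phosphorylate the transcription factor STAT6, and STAT6 activates genes of alternative activation. In mouse macrophages these include the secreted proteins Retnla (also called RELMα or Fizz1) and Chil3 (Ym1), lectin receptors that bind sugars on glycoproteins, and chemokines that attract eosinophils and T cells. Resident macrophages of the serous cavities are known to express some of them without infection.

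Promoter sequences are shown for Retnla and Chil3, the members with the largest differences between the groups, and for Ccl17, a member that did not follow them. They were taken from RefSeq (GRCm38.p6), where 6 of the 8 members had an entry and Clec10a and Ccl24 had none. Each is printed 5′ to 3′ on the strand of the gene, as the 250 bases before the annotated start, from the windows chr16:48842359-48842658 (plus strand) for Retnla, chr3:106167515-106167814 (minus strand) for Chil3 and chr8:94810203-94810502 (plus strand) for Ccl17, which each run 50 bases past the start. Capitals mark matches to the letters TTCNNNNGAA, the spacing that STAT6 is known to prefer, and to TTCNNNGAA, the spacing of other STAT factors. Both letter patterns read the same on either strand.
Retnla: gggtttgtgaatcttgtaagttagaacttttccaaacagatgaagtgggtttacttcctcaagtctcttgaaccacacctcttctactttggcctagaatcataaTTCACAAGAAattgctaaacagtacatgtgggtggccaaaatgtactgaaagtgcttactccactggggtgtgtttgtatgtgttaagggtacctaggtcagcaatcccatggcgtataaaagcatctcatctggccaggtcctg
Chil3: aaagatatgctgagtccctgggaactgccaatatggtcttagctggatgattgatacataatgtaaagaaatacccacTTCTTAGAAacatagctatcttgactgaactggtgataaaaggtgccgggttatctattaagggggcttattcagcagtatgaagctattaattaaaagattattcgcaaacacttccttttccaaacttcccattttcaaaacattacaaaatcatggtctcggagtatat
Ccl17: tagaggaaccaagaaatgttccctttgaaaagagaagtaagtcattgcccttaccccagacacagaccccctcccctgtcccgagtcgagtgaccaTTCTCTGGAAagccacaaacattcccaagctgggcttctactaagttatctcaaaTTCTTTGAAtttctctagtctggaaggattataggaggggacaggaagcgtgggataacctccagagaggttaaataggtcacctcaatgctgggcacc
The match in Retnla, TTCACAAGAA, lay 145 to 136 bases before the start. The Ccl17 window held TTCTCTGGAA, 154 to 145 bases before the start, and TTCTTTGAA, 99 to 91 bases before it. Chil3 held TTCTTAGAA, 172 to 164 bases before its start, and no match to the longer pattern in this window. Over all 32851 RefSeq windows of the same length, 6.95% held TTCNNNNGAA and 8.3% held TTCNNNGAA. In the windows of Mrc1, Mgl2 and Il4ra neither pattern was found. These matches are a description of letters, and Ccl17, with a match to both, did not share the pattern of Retnla described next.

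Retnla (Entrez 57262) encodes a small secreted protein of the resistin family. Its level was 3428, 1507 and 98.5 FPKM in control libraries 1, 2 and 3. In knockout libraries 1, 2 and 3 it was 8.71, 8.62 and 15.0 FPKM. Every knockout library was thus below every control library, and the lowest control was 6.57 times the highest knockout. By level, Retnla took place 15 among the listed genes in control library 1, place 30 in control library 2 and place 632 in control library 3. Its places in the knockout libraries were 3941, 3991 and 2986. The group means were 10.8 ± 3.65 FPKM (SD, n = 3) in the knockout and 1678 ± 1671 FPKM (SD, n = 3) in the control, a ratio of 156. On the log2(FPKM + 1) scale the knockout was lower by a fold change of -6.13 (standard error 1.16). Between 197 and 332 reads in the knockout libraries and between 1928 and 73196 in the controls stood behind these values, so counting error was small beside the spread of the controls.

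Chil3 (Entrez 12655) encodes a secreted chitinase-like lectin that is also made by neutrophils. The control libraries had 2991, 2094 and 144 FPKM and the knockout libraries 63.8, 78.3 and 45.4 FPKM. Here too the groups did not overlap, but control library 3 exceeded the highest knockout library only 1.84-fold. The means were 62.5 ± 16.5 FPKM in the knockout and 1743 ± 1456 FPKM in the control (SD, n = 3 each), a ratio of 27.9 and a log2 fold change of -3.97 (standard error 1.04). Chil3 remained a readily detected transcript in the knockout libraries, at places 953, 798 and 1316 by level. Retnla and Chil3 were at similar levels in the controls, with ratios of Retnla to Chil3 in FPKM of 1.15, 0.72 and 0.684, and at unlike levels in the knockout libraries, with ratios of 0.136, 0.11 and 0.33. Chil4, a near-identical neighbour of Chil3, had 40, 28 and 3 reads in the control libraries and at most 1 read in a knockout library, which was no more than 0.0374% of the reads on both genes in any library. How the counting divided reads between such copies is not given in the sources used here.

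**Figure D1:**
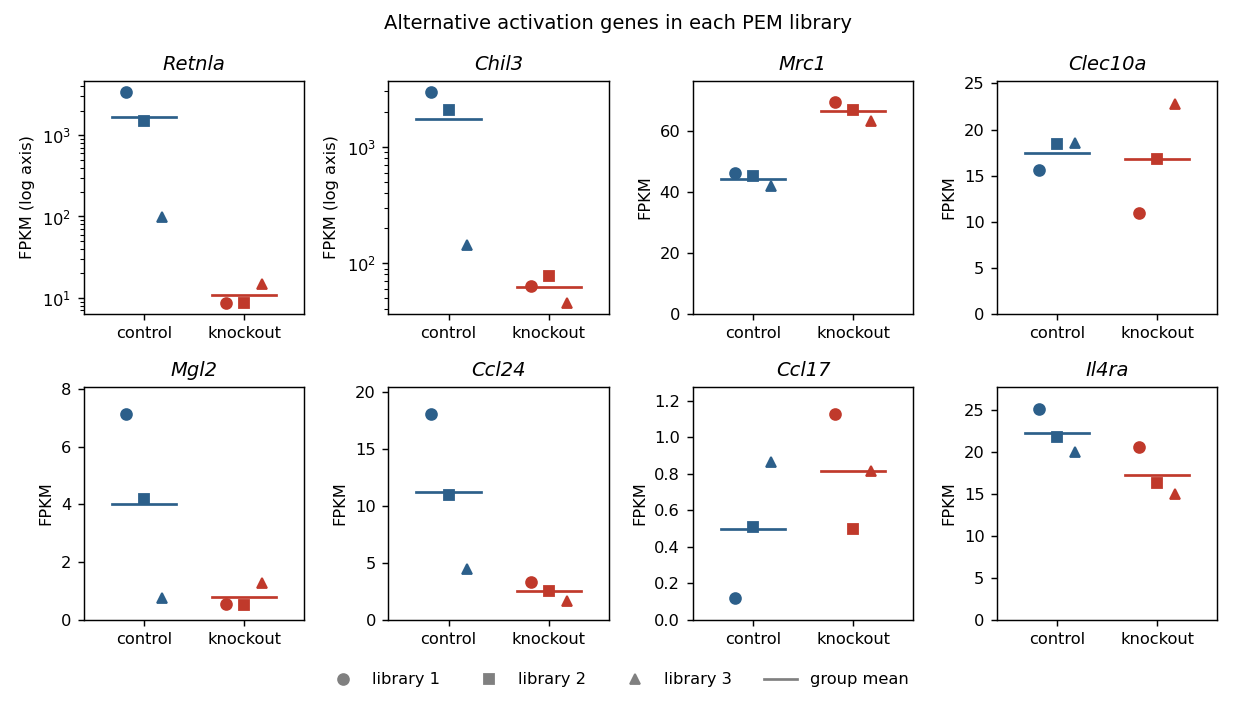
Level of each of the 8 genes in FPKM, by group, with 1 point per library (circle, square and triangle for libraries 1, 2 and 3) and a line at the group mean. Retnla and Chil3 are on a log axis and the others on a linear axis from 0. The control libraries of Retnla, Chil3, Mgl2 and Ccl24 are widely spread, with library 1 highest and library 3 lowest, while Mrc1 is higher in each knockout library than in any control.

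The lectin receptors differed among themselves. Mrc1 (Entrez 17533) encodes the macrophage mannose receptor, an endocytic lectin. It was the one member of the set whose knockout libraries all lay above the controls, at 69.4, 66.8 and 63.4 FPKM against 46.2, 45.1 and 41.9 FPKM in control libraries 1 to 3. Both groups were tight, with means of 66.5 ± 2.98 and 44.4 ± 2.23 FPKM (SD, n = 3 each), a 1.5-fold higher level in the knockout. The log2 fold change of Mrc1 was 0.57 (standard error 0.12). Across all fits it lay between 0.53 and 0.72, the latter after the values were rescaled by the median of ratios.

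Clec10a (Entrez 17312) and Mgl2 (Entrez 216864) encode the related lectins MGL1 and MGL2, which bind galactose-type sugars, and are neighbours on chromosome 11. Clec10a was at 15.6, 18.4 and 18.5 FPKM in the controls and at 10.9, 16.8 and 22.8 FPKM in the knockout libraries, with overlapping groups. Its log2 fold change was -0.11 (standard error 0.25, 95% confidence interval -0.69 to 0.47), and the sign turned to 0.03 after rescaling by the median of ratios and to 0.15 without knockout library 1. Mgl2 was at 7.13, 4.18 and 0.767 FPKM in the controls and at 0.540, 0.502 and 1.28 FPKM in the knockout libraries. Control libraries 1 and 2 were thus above all knockout libraries, and control library 3 lay inside their range. The mean of Mgl2 was 4.03 ± 3.19 FPKM in the control and 0.775 ± 0.44 FPKM in the knockout (SD, n = 3 each), a ratio of 5.2, so it reached the filter through the control group alone. Its log2 fold change was -1.27 (standard error 0.52). The pair separated most clearly in the ratio of Mgl2 to Clec10a within a library, which was 0.458 and 0.227 in control libraries 1 and 2, 0.0414 in control library 3, and 0.0494, 0.03 and 0.0563 in the knockout libraries. In their ratio control library 3 was again inside the knockout range.

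Of the chemokines, Ccl24 (Entrez 56221) encodes eotaxin-2, which attracts eosinophils through CCR3. Its level was 18.1, 11.0 and 4.46 FPKM in the controls and 3.33, 2.56 and 1.68 FPKM in the knockout libraries, without overlap. The means of Ccl24 were 11.2 ± 6.82 and 2.52 ± 0.829 FPKM (SD, n = 3 each), a ratio of 4.44 and a log2 difference of -1.64 (standard error 0.43). The nearest libraries of the groups, control library 3 and knockout library 1, differed 1.34-fold. Ccl17 (Entrez 20295) encodes a ligand of CCR4 that attracts T cells. It was barely detected, at 0.121, 0.507 and 0.866 FPKM (7, 29 and 46 reads) in the controls and at 1.13, 0.500 and 0.815 FPKM (70, 31 and 49 reads) in the knockout libraries. The groups overlapped, and Ccl17 stayed below the filter and was not tested.

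Il4ra (Entrez 16190) encodes the receptor chain shared by IL-4 and IL-13. The controls had 25.1, 21.7 and 19.9 FPKM and the knockout libraries 20.5, 16.3 and 14.9 FPKM, so that knockout library 1 reached above control library 3. Its means were 22.2 ± 2.67 and 17.2 ± 2.91 FPKM (SD, n = 3 each), a ratio of 1.29 and a log2 difference of -0.35 (standard error 0.16, 95% confidence interval -0.73 to 0.02).

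Of the 7 members tested, 2 were past an adjusted p of 0.05 from limma, Retnla in the lower and Mrc1 in the higher direction, where 7.31% of all tested genes were past it, 4.74% in the lower and 2.57% in the higher direction. Since the set was selected on this contrast, nothing is read from that count. The groups did not overlap in 4 of the 8 members, Retnla, Chil3 and Ccl24 in the lower and Mrc1 in the higher direction, against 34.1% of tested genes, 23% lower and 11.1% higher. The median log2 fold change of the 7 was -1.27, the value of Mgl2, beside -0.11 over all tested genes. Overlap and median come from the contrast on which the set was selected, so nothing is read from either. In bulk RNA, fewer cells that express a gene and less of its RNA per cell cannot be told apart.

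Single libraries decided how many members were past the threshold. With limma, 5 were past it without control library 3 (Retnla, Chil3, Mgl2 and Ccl24 lower and Mrc1 higher, where 14.2% of all genes were), and Retnla and Mrc1 without control library 1 (8.7% of all genes). None was past it without knockout library 1 (0.332% of all genes), knockout library 2 (0.698%), knockout library 3 (5.83%) or control library 2 (0.0886%), although 5, 4, 5 and 4 of the 7 had an unadjusted p under 0.05 in these fits. The direction of Retnla held throughout, with log2 fold changes from -7.64 (standard error 0.38) without control library 3 to -5.08 without control library 1. Chil3 ranged from -5.34 to -3.15 and Ccl24 from -2.13 to -1.23 under the same pair of omissions. Mgl2 ranged from -2.04 in voom, on the log2 scale of reads, to -0.80 without control library 1. With the replicate number as a block, 4 members were past the threshold, Chil3 and Ccl24 in addition to Retnla and Mrc1 (9.47% of all genes). The labels do not say that libraries of the same number were paired. Without a filter on low values Mrc1 alone was (2.89% of all genes).

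**Figure D2:**
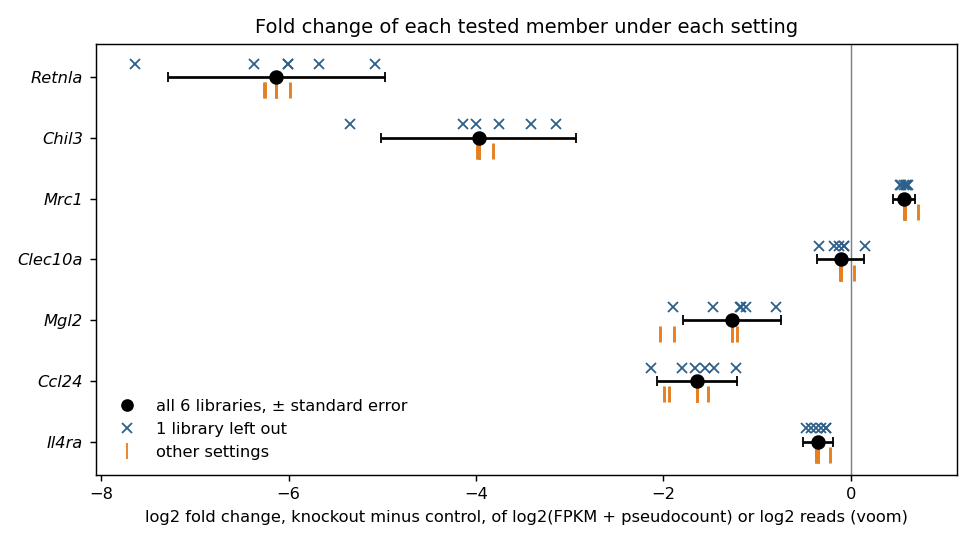
Log2 fold change, knockout minus control, of the 7 tested members. Black points with bars are the fit of all 6 libraries ± standard error, blue crosses the 6 fits without 1 library, and orange ticks the other settings. Retnla runs from -7.64 to -5.08 and stays below 0, while Clec10a lies on both sides of 0.

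The spread among the control libraries was a feature of the same genes. Retnla was 34.8-fold higher in control library 1 than in control library 3. This was the largest such excess on the log2(FPKM + 1) scale among the 9030 tested genes (5.11), and Chil3, with 20.8-fold, had the third largest (4.37). Timd4, the gene of Tim-4, took place 6 of this order with 16.5-fold. Mgl2 differed 9.3-fold (place 57) and Ccl24 4.06-fold (place 111). Il4ra, Mrc1 and Clec10a were far steadier, with ratios of control library 1 to control library 3 of 1.26, 1.1 and 0.841. Control library 1 was highest, control library 2 intermediate and control library 3 lowest in 6 of the 8 members, the exceptions being Clec10a and Ccl17, and in 15.7% of tested genes. An excess of control library 1 over control library 3 of at least 3 on the log2 scale was found in 11 genes (0.122%). Genes higher in control library 3 were not ranked or counted here.

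The targeted gene gave a check of the labels. Timd4 (Entrez 276891) had 19.5, 12.0 and 1.19 FPKM in the controls, and no knockout library exceeded 0.394 FPKM, so each library lay on the side that its title names (log2 fold change -2.66, standard error 0.74, limma adjusted p = 0.0715, and 0.0436 with the replicate block). The floxed part is a stretch of the gene, so reads from the rest of it are still counted. The control library with the least Timd4 was also the one with the least Retnla, Chil3, Mgl2 and Ccl24. Lyz2 (Entrez 17105), whose locus carries Cre, had 7090, 7171 and 8482 FPKM in the controls but 41.4, 4656 and 106 FPKM in the knockout libraries. Knockout library 2, with Lyz2 closest to the control level, did not stand apart in Retnla or Timd4.

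By a distance between centred log2(FPKM + 1) profiles over the 6 libraries, the gene most like Retnla among the 5459 tested genes with a mean of at least 5 FPKM was Chil3, with a root mean square distance of 1.20. The next were C4b (1.27), a complement component, Prg4 (1.50), a lubricating proteoglycan of serous cavity macrophages, Stfa3 (1.58), a cystatin-type protease inhibitor, Cd79a (1.77), a chain of the B cell receptor complex, and Timd4 (1.85). Of the other members, Ccl24 had a distance of 2.51, Il4ra 3.25, Clec10a 3.41 and Mrc1 3.68. Since Retnla was chosen for its pattern, likeness to it is a description.

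Markers of other cell types were compared with the set. The macrophage markers Adgre1 (F4/80) and Csf1r were high in every library, at 235 to 364 and 83.3 to 143 FPKM in the knockout against 310 to 329 and 151 to 180 FPKM in the controls. Cd68 and Itgam were high in every library too. Of the 7 macrophage markers tested, 1 was past the threshold, in the higher direction, where 2.57% of all tested genes were. This was Fcgr1, a high-affinity Fc receptor, which rose from 5.83 ± 0.713 to 47.9 ± 10.9 FPKM (log2 fold change 2.82, standard error 0.19, limma adjusted p = 0.0015). Cd68 was 1.51-fold higher without overlap and Mertk 2.17-fold higher with overlap, neither past the threshold (limma adjusted p = 0.0989 and 0.223). The other 4 of the 7 were lower in value and did not pass. The 8 markers of large peritoneal macrophages, the resident type that carries Tim-4, summed to 155, 97.7 and 35.9 FPKM in control libraries 1 to 3, the same order as Retnla, and to 4.66, 8.6 and 5.85 FPKM in the knockout libraries. None of the 8 was listed at 0 in a library, and Timd4 itself is among them. Most of the sum in the controls was Prg4, which was at 114, 70.5 and 30.1 FPKM in the controls and at no more than 3.99 FPKM in a knockout library. Gata6, the lineage factor of these cells, was low and overlapped between the groups, at 1.07, 1.01 and 0.117 FPKM in the controls and at 0.158, 0.78 and 0.273 FPKM in the knockout, as did Selp. The 5 listed B cell markers likewise summed to 115, 78.9 and 27.5 FPKM in the controls and to between 2.78 and 5.52 FPKM in the knockout libraries. Mast cell markers summed to between 37.5 and 47.2 FPKM in the controls, without the order of Retnla, and to between 1.58 and 2.04 FPKM in the knockout libraries. Of the 6 mast cell markers, 2 were listed at 0 in at least 1 library. Most of the tested genes of these lists reached the filter through the controls alone, so no count of calls is given for them. T cell markers summed to 1.79, 1.33 and 0.565 FPKM in control libraries 1 to 3, in the order of Retnla. In the knockout libraries that sum was between 0.231 and 0.373 FPKM. No T cell marker was above 0.468 FPKM, and none reached the filter.

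Neutrophil markers, relevant to Chil3, summed to 192, 281 and 457 FPKM in control libraries 1 to 3 and to 127, 70.5 and 200 FPKM in the knockout libraries. The spread of that sum among the controls came from Mmp8, at 19.5, 122 and 294 FPKM, against 71.9, 29.2 and 127 FPKM in the knockout libraries (limma adjusted p = 0.78). S100a9 overlapped too, at 0, 2.3 and 5.12 FPKM in the controls and at 0.953, 0.949 and 1.21 FPKM in the knockout libraries (limma adjusted p = 0.667). S100a8, which encodes an abundant neutrophil protein, was steady there at 171, 156 and 156 FPKM and fell to 52.9, 39.9 and 70.5 FPKM in the knockout libraries (log2 fold change -1.58, standard error 0.21, limma adjusted p = 0.0113, but 0.0603 without knockout library 1 and 0.0824 without control library 2). Camp was lower without overlap too, at 0.556, 0.356 and 0.856 FPKM in the knockout against 1.56, 1.41 and 1.38 FPKM in the controls. It reached the filter through the controls alone (log2 fold change -0.64, limma adjusted p = 0.0454, and 0.0609 without the filter). For eosinophils, 3 of 6 markers were listed (Siglecf, Ccr3 and Il5ra), none above 0.883 FPKM and none reaching the filter. They summed to between 1.17 and 1.56 FPKM in the controls and to between 0.135 and 0.577 FPKM in the knockout libraries. Ccr3 and Il5ra were lower in the knockout without overlap, and Siglecf overlapped. Dendritic cell markers, relevant to Ccl17 and Mgl2, summed to between 8.74 and 11.6 FPKM in the controls and to between 2.78 and 6.71 FPKM in the knockout libraries, and Ccr7, a chemokine receptor of migrating dendritic cells, made up most of that sum in each library. Ccr7 was lower in the knockout without overlap, at 2.33 to 5.82 against 7.4 to 10.5 FPKM (limma adjusted p = 0.0553). Dpp4 was below the filter and also lower without overlap, at 0.0936 to 0.166 against 0.943, 0.794 and 0.189 FPKM in control libraries 1 to 3. Flt3, Zbtb46, Xcr1, Clec9a, Cd209a and Itgae overlapped between the groups, and none of them was above 0.373 FPKM. Markers of small and MHC class II-high macrophages summed to 2447, 1611 and 940 FPKM in the controls and to 1374, 545 and 1000 FPKM in the knockout libraries. Cd74 and the H2 genes made up most of that sum, and each overlapped between the groups. Of the 7 tested markers of this list, 2 were lower without overlap, against 23% of all tested genes. They were Irf4, also one of the regulators below, and Ciita (limma adjusted p = 0.0426), which reached the filter through the controls alone. Markers of mesothelial cells and fibroblasts summed to 2.04, 5.71 and 11.5 FPKM in the controls and to 10.2, 25.4 and 10.6 FPKM in the knockout libraries, so they were higher in the knockout than in control libraries 1 and 2 and overlapped with control library 3. Of these, Col1a1 had a limma adjusted p of 0.109, and of 0.0442 with the replicate block. The part of these cell types in the levels of the members was not tested.

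**Figure D3:**
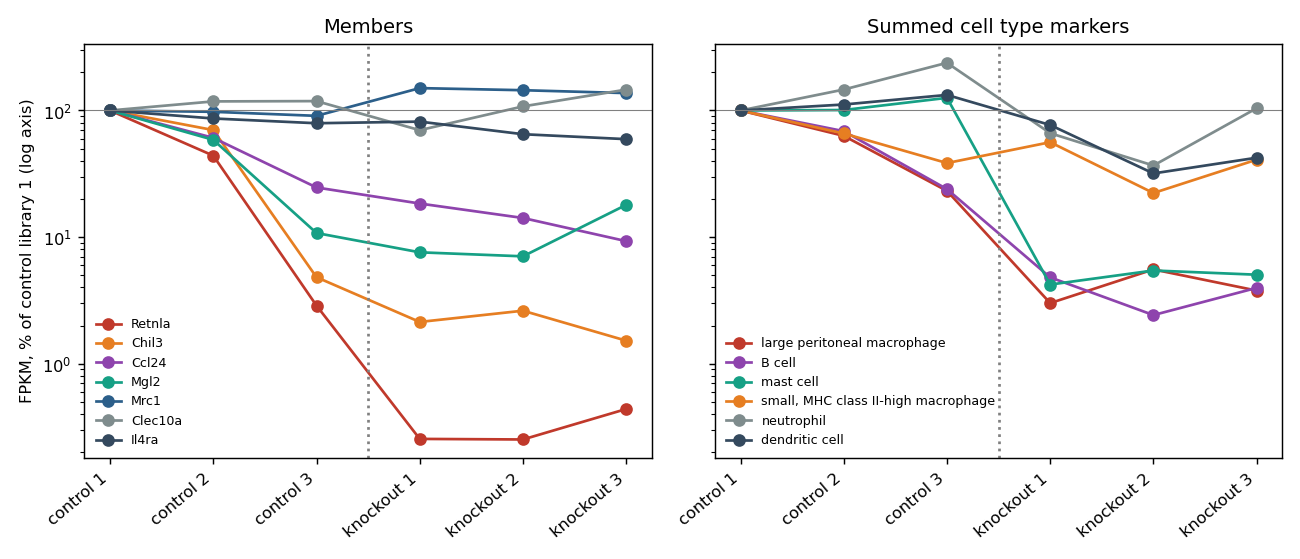
Left, FPKM of the 7 tested members in each library as a percentage of control library 1, on a log axis. Right, the same for the summed FPKM of the markers of 6 cell types. Among the controls, Retnla, Chil3, Mgl2 and Ccl24 are lowest in library 3. So are the sums for large peritoneal macrophages, for small and MHC class II-high macrophages and for B cells. The mast cell sum is low in the knockout libraries alone.

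The pathway that controls the set was examined in 3 lists of 44 other genes, of which 42 were listed and 33 tested. Of these, 7 were past the threshold (6 lower and 1 higher). Of the 6, Irs2 and Alox15 reached the filter through the controls alone, so nothing about the list is read from the count. All adjusted p-values that follow are from limma with Benjamini-Hochberg adjustment. The labels do not say whether the libraries came from separate animals, so these p-values measure the spread between the libraries, which may be technical.

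Of 11 tested genes of IL-4 and IL-13 signalling, 1 passed, in the lower direction, a share near that of all tested genes (7.31%). This gene, Irs2, an adaptor through which the IL-4 receptor activates PI3 kinase, had 0.861, 0.512 and 0.960 FPKM in the knockout libraries against 3.54, 3.71 and 4.52 FPKM in the controls. Its means were 0.778 ± 0.235 and 3.92 ± 0.526 FPKM (SD, n = 3 each), a log2 fold change of -1.47 (standard error 0.15) with an adjusted p of 0.00651, which was 0.0658 without control library 2. It reached the filter through the controls alone, and its adjusted p without the filter was 0.0206. The most abundant members of the list differed little. Il2rg, the common gamma chain of the type I IL-4 receptor, differed by -0.07 on the log2 scale (adjusted p = 0.768), the kinase gene Jak2 by -0.01 (adjusted p = 0.975) and the phosphatase gene Ptpn6 by 0.22 (adjusted p = 0.383), none past the threshold. Stat6 itself was at 31.5, 33.3 and 32.7 FPKM in the knockout against 23.4, 27.0 and 38.4 FPKM in the control libraries (log2 fold change 0.16, adjusted p = 0.609). Il13ra1, the partner chain of Il4ra in the type II receptor, did not pass (log2 fold change 0.99, adjusted p = 0.0693), though it did with the replicate block (adjusted p = 0.0199) and without knockout library 3 (adjusted p = 0.0306). Transcripts of the ligands were near the floor, with no library above 0.203 FPKM for Il4 (5 reads) or 0.17 FPKM for Il13 (8 reads).

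Of 10 tested transcription regulators of alternative activation, 4 fell and none rose, where 4.74% of all tested genes were lower and 2.57% higher past the threshold. Irf4, a factor required for alternative activation in mice, had 6.84, 5.11 and 2.96 FPKM in the controls and 1.62, 0.722 and 0.658 FPKM in the knockout libraries (log2 fold change -1.55, standard error 0.29, adjusted p = 0.0263). As with Retnla, control library 1 was the highest and control library 3 the lowest for Irf4, but over a 2.31-fold range. Ppard, a lipid-activated nuclear receptor, fell from 23.7 ± 6.48 to 6.85 ± 1.83 FPKM (log2 fold change -1.65, standard error 0.24, adjusted p = 0.0147). Myc, a growth-promoting factor that IL-4 induces in macrophages, fell from 12.7 ± 2.79 to 5.26 ± 0.824 FPKM (log2 fold change -1.12, standard error 0.18, adjusted p = 0.0196). Tfec, an IL-4-inducible factor of the MiT family restricted to macrophages, fell from 30.1 ± 2.99 to 11.4 ± 1.86 FPKM (log2 fold change -1.33, standard error 0.15, adjusted p = 0.00963). Cebpb, a leucine zipper factor of myeloid cells, differed by 0.17 (log2, adjusted p = 0.521) and Bhlhe40, a helix-loop-helix factor, by 0.12 (log2, adjusted p = 0.851). Pparg, the nuclear receptor related to Ppard, was at 2.02 ± 0.321 against 0.822 ± 0.52 FPKM without passing (log2 fold change 0.77, adjusted p = 0.0813), though it passed, as higher by 0.96 on the log2 scale, on leaving out control library 3 (adjusted p = 0.0219). Without control library 2 the 4 adjusted p-values lay between 0.0801 and 0.128, and 5 of the 10 genes had an unadjusted p under 0.05. Without knockout library 1 or 2 Tfec was still called (adjusted p = 0.0399 and 0.0497), while Irf4 (0.0626 and 0.118), Ppard (0.0679 and 0.0573) and Myc (0.0938 and 0.0797) were not, and Irf4 was also lost without knockout library 3 (0.0626) and without the filter on low values (0.0568).

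**Figure D4:**
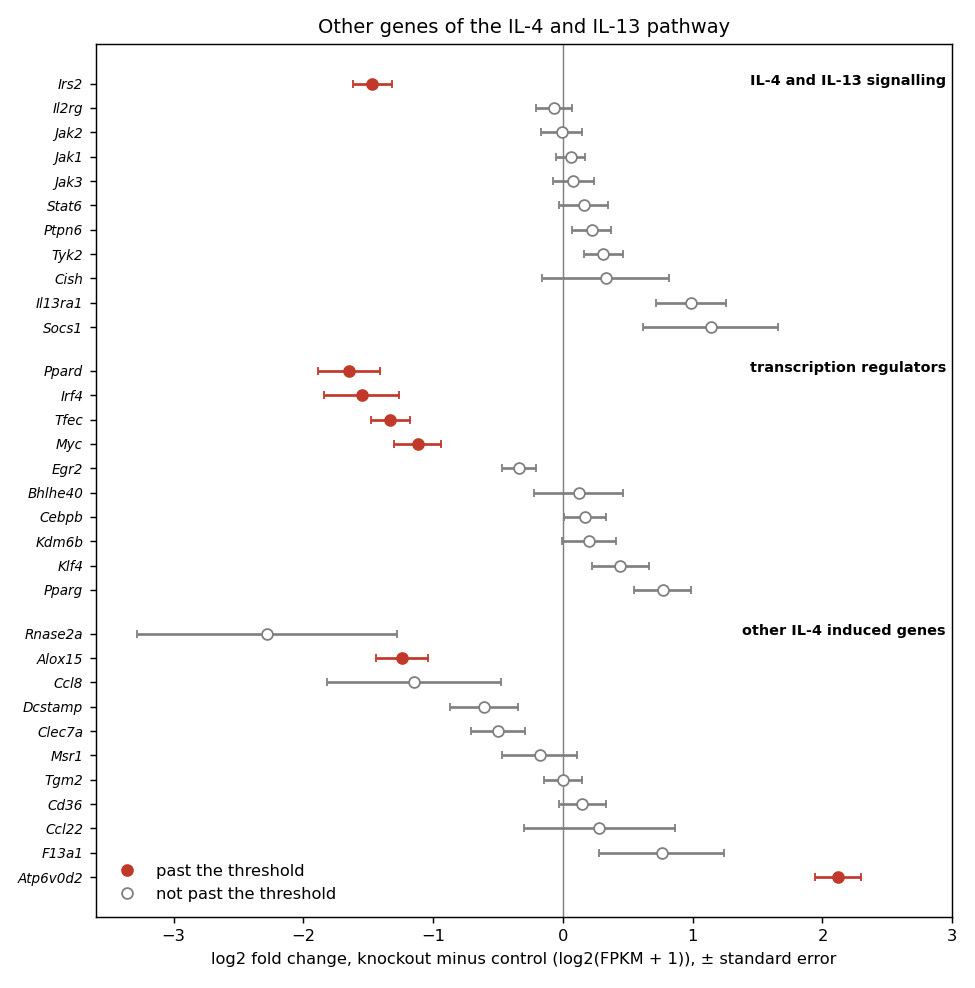
Log2 fold change, knockout minus control, ± standard error for tested genes of the 3 pathway lists, with 1 gene left out of the plot. Filled red points are past an adjusted p of 0.05 from limma, open grey points are not. The 6 genes past it on the left are Irs2, Ppard, Irf4, Tfec, Myc and Alox15, and the 1 on the right is Atp6v0d2.

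Among 12 tested further genes that IL-4 induces in mouse macrophages, 1 passed in each direction. Of all tested genes, 4.74% were lower and 2.57% higher past the threshold, and nothing about the list is read from this count. Alox15, the 12/15-lipoxygenase, was at 0.156, 0.102 and 0.345 FPKM in the knockout against 2.69, 1.76 and 1.19 FPKM in the control libraries (log2 fold change -1.24, standard error 0.20, adjusted p = 0.0196), and it reached the filter through the controls alone (adjusted p = 0.0383 without the filter). Atp6v0d2, a subunit of the lysosomal proton pump, rose from 10.8 ± 0.446 to 51.4 ± 12.8 FPKM (log2 fold change 2.12, standard error 0.18, adjusted p = 0.00494). Its control libraries were nearly level, at 10.4, 11.3 and 10.8 FPKM. The call of Atp6v0d2 was lost without control library 2 (adjusted p = 0.0551), and that of Alox15 without it (0.102) or without knockout library 1 (0.0931) or 2 (0.095). Tgm2, the tissue transglutaminase, and Cd36, a lipid scavenger receptor, were abundant and differed by 0.00 and 0.15 on the log2 scale (adjusted p = 0.997 and 0.608).

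Of the 16 relatives and neighbours of the members, 7 were listed and 4 tested, and none was past the threshold with limma or with voom, while 2 had an unadjusted p under 0.05 in each. Retnlg, which lies beside Retnla on chromosome 16, was at 0.9, 0.779 and 1.21 FPKM in the knockout against 3.08, 1.73 and 2.18 FPKM in the control libraries (log2 fold change -0.75, standard error 0.18, adjusted p = 0.0503, against 0.0437 with the replicate block and 0.0471 without control library 3). Its groups did not overlap, and it reached the filter through the controls alone, at a small part of the level of Retnla in the controls. Il21r, next to Il4ra on chromosome 7, was at 16.1, 10.5 and 3.10 FPKM in the controls and at 2.26, 1.04 and 3.23 FPKM in the knockout libraries (log2 difference -1.61, adjusted p = 0.103, which was 0.00782 when control library 3 was left out). In Il21r, as in Mgl2 and Il4ra, control library 3 lay within the knockout range. Ccl22, which encodes the other CCR4 ligand and lies near Ccl17, was at 8.67, 16.9 and 48.7 FPKM in the controls, highest where Retnla was lowest, and at 37.2, 16.6 and 21.7 FPKM in the knockout libraries (log2 fold change 0.28, adjusted p = 0.782).

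Genes of classical activation were set beside the members. Of 12 tested, 1 rose and none fell past the threshold, where 2.57% of all tested genes were higher and 4.74% lower. An unadjusted p under 0.05 was found for 5 of the 12. In 5 every knockout library lay above every control, and in none below, against 11.1% and 23% of all tested genes. The gene past the threshold was Irf5, a transcription factor of the inflammatory state. It rose from 21.9 ± 2.92 to 38.4 ± 4.45 FPKM (log2 fold change 0.78, standard error 0.15, adjusted p = 0.0297). This call was lost without knockout library 1 (adjusted p = 0.133), knockout library 2 (0.149) or control library 2 (0.121). With the replicate block 5 passed, all higher, where 9.47% of all genes passed, among them Cxcl10, which encodes an interferon-induced chemokine (log2 fold change 1.67, adjusted p = 0.029, against 0.103 without the block and 0.0338 without control library 3). Without control library 3, 2 genes also passed in the lower direction, Il6 (log2 fold change -1.79, adjusted p = 0.0091) and Ptgs2 (log2 fold change -1.41, adjusted p = 0.00759). Tnf differed by 0.39 on the log2 scale, short of the threshold (adjusted p = 0.212). Il1b was at 2625, 1536 and 418 FPKM in the controls and at 1410, 916 and 653 FPKM in the knockout libraries (log2 fold change -0.33, adjusted p = 0.765). Control library 1 was thus the highest and control library 3 the lowest for this inflammatory cytokine gene as well as for Retnla.

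The authors' annotation groups the members by what they bind and where they act. Of the 8, 5 carry the term extracellular space, 4 carbohydrate binding (Chil3, Mrc1, Clec10a and Mgl2), 3 mannose binding (of 20 listed genes with this term) and 2 chemokine activity. Mrc1 alone carries cellular response to interleukin-4, and Il4ra alone the Reactome term for IL-4 and IL-13 signalling. Of that term's 11 tested genes, none was past the threshold with limma on all 6 libraries (3 had an unadjusted p under 0.05), and 1 was with voom, with the replicate block and on leaving out library 3 of either group. The term had a median log2 fold change of 0.08.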

How the data were processed

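RNA-seq of 6 PEM libraries (3 knockout, 3 control) was analysed from the 1 table deposited for the comparison. The authors deposited expression values per library, whose unit, FPKM, was inferred from the values, a signal column of mean normalized reads per group, and a fold ratio, its log2 value, a p-value and a q-value per gene from their own model, and these results were not used. The submitters' processing notes name mm9. The aligner, counter and annotation are not given in the sources used here, so coordinates come from RefSeq promoter windows (GRCm38.p6) alone. Groups follow the sample titles. No per-sample column was left unused (0).

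Whole reads were recovered from the FPKM values and group means, with between 99.9805% and 100% of values within 0.02 of a whole read in each library, and gave 36170767 to 42217558 reads per library, of which the 10 most abundant genes held 9.34 to 12.5%. They served for depth and for voom. Statements on counting error cover counting alone.

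Two-sided tests were made on log2(FPKM + 1) with limma 3.58.1 (lmFit, then eBayes, trend on) in R 4.3.3. They covered the 9030 genes that averaged at least 1 FPKM in one group, with Benjamini-Hochberg adjustment and a threshold of 0.05. This scale understates the change of low genes. Tables were made in Python 3.11.15. The fit was tested on simulated data.

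The members and all gene lists were chosen with earlier results of these data known, so they are not independent of them. Named were the members, Timd4, Lyz2, each list gene past the threshold, the 3 most abundant genes of each list and the 5 genes most like Retnla. Stat6, Il13ra1, Il4, Il13, Pparg, Chil4 and cell type markers were named after their values were seen. 1 gene that this rule names stays in the counts of its list but is not reported here. List genes without a row in the table were not analysed here.

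Replicate numbers were checked for pairing. Deviations from the group means correlated at 0.109, 0.109 and 0.304 between libraries of the same number and at -0.332 to 0.291 between others. Knockout library 2 and control library 1 reached 0.291, above the 0.109 of libraries with the same number. The check therefore cannot decide whether libraries were paired, and the labels do not say so. Fits with the block are given only as an alternative setting.

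The alternatives were the block, no filter, a filter of 5 FPKM, a pseudocount of 0.1, rescaling by the median of ratios, voom on recovered reads and each library left out.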

Additional observations from a re-analysis of the deposited data

How the results depend on the processing

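Rescaling by the median of ratios shifted the fold change of the median gene from -0.11 to 0.01 (log2) and the genes past the threshold from 232 higher and 428 lower to 343 higher and 326 lower. It turned the small changes of Il2rg (0.07) and Jak2 (0.14). A filter of 5 FPKM left 436 genes past the threshold, none of the signalling genes, as Irs2 is below it (1 of the 8 tested had an unadjusted p under 0.05), and 1 of the other IL-4 induced genes, as Alox15 is below it. Without a filter 1 member was past the threshold. A pseudocount of 0.1 added 1 relative (Retnlg).

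With the replicate number as a block, 4 members, 2 signalling genes, 1 relative and 5 classical activation genes were past the threshold, and the counts of regulators and of other IL-4 induced genes stayed at 4 and 2.

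With 1 library left out, the genes past the threshold ran from 8 (without control library 2) to 1278 (without control library 3), the members from 0 to 5, the signalling genes from 0 to 2, the regulators from 0 to 5, the other IL-4 induced genes from 0 to 6, the relatives from 0 to 2 and the classical genes from 0 to 4. Small log2 fold changes that did not pass the threshold took both signs, in Bhlhe40 (-0.23 to 0.49), Ccl22 (-0.26 to 0.92), Il1b (-1.09 to 0.24), Il2rg (-0.17 to 0.05), Jak2 (-0.15 to 0.10) and Tgm2 (-0.07 to 0.11). Apart from the filters, the cause was not tested. With 3 libraries a group, the spread of the controls limits what can be said of Retnla and Chil3 more than depth does.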
